A study of Homo sapiens with 8 samples.

Results

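The metallothionein genes MT2A, MT1X, MT1E, MT1F, MT1G and MT1M, the zinc exporter gene SLC30A1 and the zinc-sensing transcription factor gene MTF1 were examined in melatonin-treated bladder cancer cells. They were chosen by name, but with earlier results of these data known, so their calls are not independent of the choice. Each of the 8 genes had 1 row among the 60612 rows of the expression table. RNA sequencing was performed on 2 human bladder cancer cell lines, 5637 and UM-UC3, to learn how melatonin acts on such cells. Cells received melatonin at 1, 2 or 4 mM for 24 h, or the vehicle DMSO (0 mM). The labels give both lines as wild type, 5637 grown in RPMI medium and UM-UC3 in MEM, each with fetal bovine serum. There was 1 library per dose and line (4 libraries per line, 8 in all), so line and medium cannot be told apart, and no condition had a replicate. The dose series therefore served for the tests.

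Metallothioneins are small, cysteine-rich proteins of the cytosol and nucleus that bind zinc, copper and cadmium and take part in zinc storage and detoxification. Free zinc binds to the transcription factor MTF1, which then binds metal response elements (MREs) in the promoters of metallothionein genes and of SLC30A1. SLC30A1 encodes ZnT1, the zinc exporter of the plasma membrane. Metallothionein genes also respond to glucocorticoids and to oxidative stress, and they are widely used as a readout of metal exposure.

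Metal response elements in the promoters of the members are described first. Their number was not tested against the dose trends. Promoters of 250 bases before to 50 bases after the start of the gene were taken from RefSeq (GRCh38.p14), where 4 of the 8 members had an entry. The promoter of MT2A is chr16:56608334-56608633 on the plus strand, that of MT1X is chr16:56682220-56682519 on the plus strand, and that of SLC30A1 is chr1:211579112-211579411 on the minus strand. Each is printed 5′ to 3′ along its gene. Capitals mark the MRE core, searched as TGCACNC or TGCGCNC on both strands.
MT2A: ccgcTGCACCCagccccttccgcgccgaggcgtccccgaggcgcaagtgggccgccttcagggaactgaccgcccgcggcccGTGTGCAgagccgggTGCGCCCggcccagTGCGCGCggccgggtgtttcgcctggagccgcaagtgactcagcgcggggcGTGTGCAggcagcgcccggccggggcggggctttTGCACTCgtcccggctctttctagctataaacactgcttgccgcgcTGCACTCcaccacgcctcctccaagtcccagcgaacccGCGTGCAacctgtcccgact
MT1X: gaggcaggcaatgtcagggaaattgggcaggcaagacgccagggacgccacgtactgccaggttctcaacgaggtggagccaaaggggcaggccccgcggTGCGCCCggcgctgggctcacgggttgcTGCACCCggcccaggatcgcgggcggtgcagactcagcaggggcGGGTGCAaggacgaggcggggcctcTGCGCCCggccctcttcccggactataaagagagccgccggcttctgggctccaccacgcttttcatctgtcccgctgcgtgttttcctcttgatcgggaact
SLC30A1: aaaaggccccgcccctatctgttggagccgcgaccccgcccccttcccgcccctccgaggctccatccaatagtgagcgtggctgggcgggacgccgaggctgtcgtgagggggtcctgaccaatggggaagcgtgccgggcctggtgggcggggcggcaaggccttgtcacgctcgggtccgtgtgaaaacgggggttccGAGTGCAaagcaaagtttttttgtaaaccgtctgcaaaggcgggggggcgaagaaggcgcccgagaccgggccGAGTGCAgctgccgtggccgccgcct

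The core occurred 8 times in the MT2A promoter, 4 times in that of MT1X and 2 times in that of SLC30A1, and the MTF1 promoter (chr1:37859543-37859842, minus strand) held 0. In MT1X all 4 cores lay between 150 and 47 bases before the start. In MT2A they were spread over the window, with 1 of the 8 after the start. Both cores of SLC30A1 were on the strand opposite to the gene, and 1 of them lay after the start. Among 35116 RefSeq promoters of the same length, 29.6% held at least 1 core, 8.60% at least 2, 0.601% at least 4 and 0.0199% at least 8. A core of the antioxidant response element, searched as TGACNNNGC on both strands, was found 1 time each in MT2A, MT1X and SLC30A1, and in 13.3% of all promoters. In MT2A that match also contains the letters TGACTCA of an AP-1 element, and no antioxidant core overlapped an MRE core. The promoter of MT1H, a metallothionein gene listed at 0 in every library, also held 8 MRE cores. How the number of cores relates to the level was not tested.

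Expression values carried no unit name and were taken as FPKM, mapped fragments scaled by transcript length and by library size. FPKM allows levels of different genes to be compared. Of the 8 members, 5 averaged 1 FPKM or more over the 8 libraries and entered the tests (MT2A, MT1X, MT1F, SLC30A1 and MTF1). The other 3 were at or near 0, and MT1F passed only through its 5637 libraries. The dose trend is the slope of log2(FPKM + 1) against dose, expressed per 4 mM, and was fitted with limma over all 12649 genes that averaged 1 FPKM or more. Slopes for each line came from a single fit to all 8 libraries, with an estimate of the spread per gene that both lines shared. A gene was called where the Benjamini-Hochberg adjusted p was under 0.05. The added 1 understates changes of low genes, and with 1 library per condition the p-values measure scatter around a line in dose, not the spread between separate cultures.

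The libraries had FPKM sums of 332961 to 395621, and mitochondrial messenger RNA took 8.80 to 15.4% of them. Read totals were not given. From the smallest steps of the values, the deepest library (UM-UC3, 0 mM) held about 2.43 times as many reads as the shallowest (5637, 1 mM), and relative depth did not follow dose. All 10 urothelial or epithelial markers were higher in 5637 cells, where they summed to 1014 to 3856 FPKM, against 98.7 to 206 FPKM in UM-UC3 cells. The epithelial keratins KRT8 and KRT18 were at 43.6 FPKM or higher in every UM-UC3 library, while KRT19, KRT5, KRT17, EPCAM and CDH1 were at 0.294 FPKM or lower. In 5637 cells 7 of these 10 markers fell with dose and 1 rose, where 20.4% of all tested genes fell and 23.0% rose. In UM-UC3 cells 2 fell and 0 rose, where 16.7% of all tested genes fell and 12.5% rose. KRT19, KRT5, KRT17, EPCAM and CDH1 entered the tests only through their 5637 libraries. Near 0 in UM-UC3 cells, they could hardly be called there, so the counts of the 2 lines are not alike. Of the 6 fibroblast markers 2 were tested, COL1A1 (6.34 to 9.68 FPKM in 5637 cells) and COL3A1 (7.64, 7.31, 1.32 and 0.0990 FPKM along the doses in UM-UC3 cells), and 0 were called in 5637 cells while 1, COL3A1, fell in UM-UC3 cells. The 5 endothelial and 6 leukocyte markers summed to at most 0.256 FPKM in any library. The part of these markers in the member trends was not tested. Over all tested genes the median trend was 0.05 for 5637 and -0.04 for UM-UC3.

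In UM-UC3 cells MT2A, MT1X, SLC30A1 and MTF1 stepped up at every dose. MT1X showed the steepest response of the group, ending 18.7 times above DMSO at 4 mM, and MT2A ended 3.86 times above DMSO. In 5637 cells MT1X rose much less, and MT2A was high at 1 and 2 mM but at 4 mM stood below its DMSO level. MT1F was above 0 in 5637 cells alone, where it fell. MTF1 rose in both lines.

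**Figure D1:**
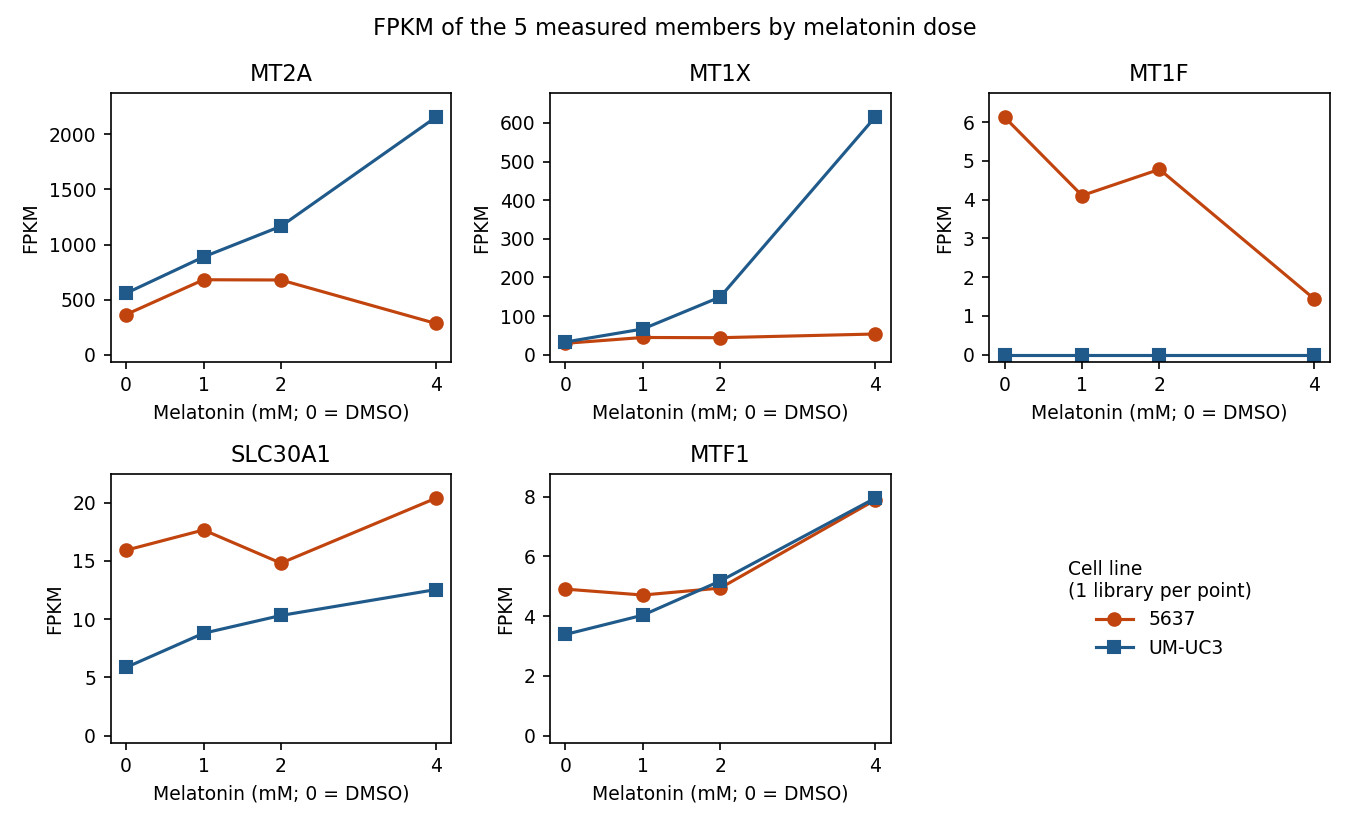
FPKM (y axis, linear, a scale per panel) against melatonin dose in mM (x axis, 0 is DMSO) for the 5 tested members, with 1 point per library, circles for 5637 and squares for UM-UC3. In UM-UC3 MT2A and MT1X climb at each dose to 2155 and 615 FPKM at 4 mM, whereas in 5637 MT2A peaks at 680 FPKM at 1 mM and MT1F ends at 1.44 FPKM.

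MT2A, the main metallothionein of both lines, is encoded at chr16:56608584-56609497 (GRCh38, plus strand, 3 exons). It measured 365, 680, 678 and 284 FPKM in 5637 cells at 0, 1, 2 and 4 mM. In UM-UC3 cells it measured 558, 887, 1166 and 2155 FPKM at the same doses. At each dose the 5637 library was the lower one, but the ranges of the 2 lines overlapped, and the lines stood furthest apart at 4 mM, where UM-UC3 cells had 7.59 times the level of 5637 cells. At 4 mM in UM-UC3 cells MT2A was the 15th highest row of the whole table, against the 75th in DMSO.

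MT1X, a further inducible isoform, lies at chr16:56682470-56684196 (plus strand, 3 exons). It measured 29.5, 44.6, 44.02 and 53.6 FPKM in 5637 cells at 0, 1, 2 and 4 mM. In UM-UC3 cells it measured 32.8, 66.6, 149 and 615 FPKM. The 2 lines began at nearly the same level, and the 4 mM library of UM-UC3 cells stood 11.5 times above that of 5637 cells. A long noncoding RNA annotated on the same strand from the same start base, AC026461.1, was listed at 0 in all 8 libraries.

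MT1F, another isoform of the cluster (chr16:56657731-56660698, plus strand, 3 exons), measured 6.12, 4.10, 4.78 and 1.44 FPKM in 5637 cells at 0, 1, 2 and 4 mM. It was listed at 0 in all 4 UM-UC3 libraries, where 1 read would be worth 0.0327 to 0.0779 FPKM over its transcript, so the 2 lines did not overlap. MT1E (chr16:56625475-56627112) was listed at 0, 0.185, 0.0436 and 0 FPKM in 5637 cells and at 0 in every UM-UC3 library. MT1G (chr16:56666730-56668065) and MT1M (chr16:56632659-56633981) were listed at 0 in all 8 libraries. For these 3 genes 1 read was estimated to be worth 0.0186 to 0.0849 FPKM over their transcripts. That is not a firm floor, since fractions of a read were also listed, such as 3.7e-05 FPKM for CP in 5637 cells at 1 mM. Ribosomal protein genes that every cell uses were not listed at 0.

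SLC30A1 (chr1:211571568-211579161, minus strand, 2 exons) measured 15.9, 17.7, 14.8 and 20.4 FPKM in 5637 cells at 0, 1, 2 and 4 mM. In UM-UC3 cells it measured 5.86, 8.79, 10.3 and 12.5 FPKM. The lowest 5637 library was above the highest UM-UC3 library, although the ratio of 5637 to UM-UC3 narrowed to 1.63 at 4 mM, against 2.72 in DMSO. MTF1 (chr1:37809574-37859592, minus strand, 11 exons) measured 4.90, 4.70, 4.94 and 7.88 FPKM in 5637 cells. In UM-UC3 cells it measured 3.39, 4.03, 5.17 and 7.94 FPKM. The increase of MTF1 in 5637 cells was in the 4 mM library alone, whereas in UM-UC3 cells each dose was above the one before.

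The first comparison asked whether the members changed with dose in UM-UC3 cells. Of the 5 tested members, 4 rose and 0 fell, where 29.2% of all tested genes were called (12.5% rose and 16.7% fell). The remaining member, MT1F, was listed at 0 in every UM-UC3 library and could not be called in this line. MT1X rose by 4.21 on the log2 scale per 4 mM (SE 0.21, limma adjusted p = 2e-05). The slope came from the 4 UM-UC3 libraries and the spread from all 8 libraries. Its p was the smallest of all 12649 genes and its slope the 10th highest. MT2A rose by 1.90 (SE 0.50, adjusted p = 0.0227), MTF1 by 1.05 (SE 0.22, adjusted p = 0.00696) and SLC30A1 by 0.92 (SE 0.23, adjusted p = 0.0143). The median over the 5 members, MT1F at 0 included, was 1.05, beside -0.04 over all tested genes. More cells making a transcript and more transcript per cell cannot be told apart in bulk RNA.

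The call of MT1X in UM-UC3 cells held under all 15 alternatives tried, with adjusted p between 7.47e-06 and 0.0157. Without the 4 mM library its slope was 4.30 (adjusted p = 0.0122). The other 3 calls rested on single libraries. MT2A lost its call without the DMSO library (1.71, adjusted p = 0.141), the 2 mM library (1.89, adjusted p = 0.0565) or the 4 mM library (2.12, adjusted p = 0.392). SLC30A1 lost it without the DMSO library (0.61, adjusted p = 0.171) or the 4 mM library (1.44, adjusted p = 0.171), and MTF1 without the 4 mM library (0.99, adjusted p = 0.344), with no turn in direction.

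In 5637 cells, 2 of the 5 tested members rose and 1 fell, where 43.3% of all tested genes were called (23.0% rose and 20.4% fell). MT1X rose by 0.73 per 4 mM (SE 0.21, limma adjusted p = 0.0172) and MTF1 by 0.62 (SE 0.22, adjusted p = 0.0407). MT1F fell by 1.46 (SE 0.29, adjusted p = 0.00274), ending at 1.44 FPKM at 4 mM, against 6.12 FPKM in DMSO. Its UM-UC3 libraries, all at 0, had no scatter and so narrowed the shared spread behind this p-value. SLC30A1 had a slope of 0.29 (95% interval -0.21 to 0.79, adjusted p = 0.328) and MT2A one of -0.58 (95% interval -1.72 to 0.56, adjusted p = 0.385). The median of the 5 members was 0.29, beside 0.05 over all tested genes.

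A straight line describes MT2A in 5637 cells poorly. Its level was 1.86 times that of DMSO at both 1 and 2 mM and 0.778 times at 4 mM. Without the DMSO library the slope was -1.80 (limma adjusted p = 0.00512), and without the 4 mM library it was 1.78 (adjusted p = 0.0952). The 3 calls in this line also hung on the highest dose. Without the 4 mM library of 5637 cells the slope of MT1X was 1.12 (adjusted p = 0.137), that of MTF1 0.02 (adjusted p = 0.996) and that of MT1F -0.60 (adjusted p = 0.474). MT1X also lost its call without the DMSO library (0.38, adjusted p = 0.262). MTF1 lost it without the 1 mM library (0.59, adjusted p = 0.0874), without any 1 UM-UC3 library (0.62, adjusted p = 0.0522 to 0.0608) and when libraries were rescaled (0.55, adjusted p = 0.0728).

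**Figure D2:**
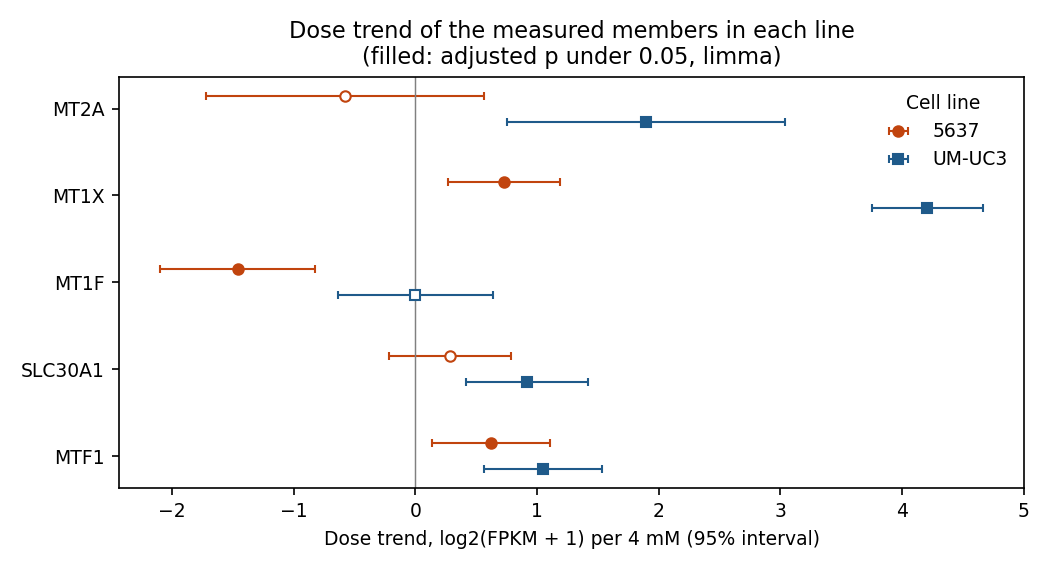
Dose trend of the 5 tested members (x axis, log2(FPKM + 1) per 4 mM, with 95% intervals from limma) in 5637 (circles, upper of each pair) and UM-UC3 (squares, lower), filled where the adjusted p was under 0.05. MT1X in UM-UC3 lies far to the right at 4.21, MT2A is at -0.58 in 5637 and 1.90 in UM-UC3, and MT1F is the one member below 0 with a filled point.

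The difference between the trends of the 2 lines was then tested directly as 5637 minus UM-UC3. Of the 5 tested members, 3 had a lower trend in 5637 cells and 0 a higher one, where 25.7% of all tested genes differed (10.4% lower and 15.3% higher). The difference was -3.48 for MT1X (SE 0.29, limma adjusted p = 0.000402) and -2.47 for MT2A (SE 0.71, adjusted p = 0.0341). For MT1F it was -1.46 (SE 0.40, adjusted p = 0.0255), which is the trend of 5637 cells alone, since the gene was at 0 in UM-UC3 cells. Those libraries at 0 also narrowed the spread behind this p-value. The trends of SLC30A1 differed by -0.63 (95% interval -1.34 to 0.08, adjusted p = 0.167) and those of MTF1 by -0.42 (95% interval -1.11 to 0.26, adjusted p = 0.328), so neither was shown to differ. The median difference over all tested genes was 0.11 as deposited and 0.00 after rescaling, and the 3 member calls were unchanged by the rescaling.

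The difference for MT1X was called whichever single library was left out. That for MT2A shrank to -0.11 (adjusted p = 0.928) without the 4 mM library of 5637 cells, and the call was also lost without the UM-UC3 library at 0 mM (-2.29, adjusted p = 0.106), 1 mM (-2.53, adjusted p = 0.0549), 2 mM (-2.47, adjusted p = 0.0747) or 4 mM (-2.70, adjusted p = 0.300). That for MT1F was lost without the 4 mM library of 5637 cells (-0.60, adjusted p = 0.499), and without the DMSO library of UM-UC3 cells (adjusted p = 0.0787) or their 4 mM library (adjusted p = 0.306).

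With a single slope for both lines, 2 of the 5 tested members rose and 0 fell, where 24.9% of all tested genes were called (12.1% rose and 12.8% fell). MT1X rose by 2.47 (SE 0.60, limma adjusted p = 0.0177, n = 8 libraries) and MTF1 by 0.83 (SE 0.18, adjusted p = 0.0124). SLC30A1 had a slope of 0.60 (SE 0.20, adjusted p = 0.0576), MT2A of 0.66 (SE 0.54, adjusted p = 0.390) and MT1F of -0.73 (SE 0.33, adjusted p = 0.131). MTF1 kept its call without any 1 library. MT1X lost it without the DMSO library (1.94, adjusted p = 0.0592) or the 4 mM library (1.39, adjusted p = 0.0606) of UM-UC3 cells. MT2A was called without the 4 mM library of 5637 cells (1.87, adjusted p = 0.00399), and its slope was -0.08 (adjusted p = 0.932) without that of UM-UC3 cells. MT1F was called without the UM-UC3 library at 4 mM (-1.19, adjusted p = 0.0249).

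The levels of the 2 lines were compared over all doses, as 5637 minus UM-UC3, with dose in the model. Of the 5 tested members, 2 were higher and 2 lower in 5637 cells, where 66.6% of all tested genes differed (36.7% higher and 30.0% lower). SLC30A1 was higher in 5637 cells by 0.84 on the log2 scale (SE 0.15, limma adjusted p = 0.000842). MT2A was lower by 1.17 (log2 difference -1.17, SE 0.40, adjusted p = 0.0272) and MT1X by 1.49 (log2 difference -1.49, SE 0.44, adjusted p = 0.0144). This model gave both lines a common slope, although the trends of MT2A and MT1X differed between the lines. In DMSO MT1X stood at 29.5 FPKM in 5637 cells and 32.8 FPKM in UM-UC3 cells, and at 4 mM UM-UC3 cells were 11.5 times higher. The level calls of MT2A and MT1X therefore include the difference in dose trend. MT1F entered the tests only through its 5637 libraries, as UM-UC3 cells were listed at 0. Its call as higher in 5637 cells (adjusted p = 3.93e-05) was therefore fixed in advance by the filter, and no fold is given. For MTF1 the difference was 0.14 (95% interval -0.17 to 0.44, adjusted p = 0.398). The call of MT2A was lost without the DMSO library of 5637 cells (-1.14, adjusted p = 0.062), the 2 mM library of UM-UC3 cells (-1.14, adjusted p = 0.063) or their 4 mM library (-0.82, adjusted p = 0.0786), and when the lines were compared as 4 dose-matched pairs (-1.17, adjusted p = 0.0509).

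The make-up of the metallothionein pool is described without a test. Summed over all metallothionein genes, the 5637 libraries held 401, 730, 727 and 339 FPKM at rising dose, and the UM-UC3 libraries held 591, 954, 1315 and 2771 FPKM. The pool made up 0.102 to 0.218% of all FPKM in 5637 cells. In UM-UC3 cells it made up 0.170% in DMSO, 0.273% at 1 mM, 0.363% at 2 mM and 0.700% at 4 mM. MT2A was the largest part in every library. Along the doses, the ratio of MT2A to MT1X was 12.4, 15.3, 15.4 and 5.30 in the 5637 series, with 16.98, 13.3, 7.80 and 3.51 in the UM-UC3 series. At 4 mM MT1X thus made up 15.8% of the 5637 pool and 22.2% of the UM-UC3 pool, against DMSO shares of 7.37% for 5637 and 5.56% for UM-UC3. In both lines the 4 mM library had the lowest ratio of its series. In UM-UC3 cells this came with a rise of both genes, and in 5637 cells with a lower level of MT2A at 4 mM than in DMSO.

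**Figure D3:**
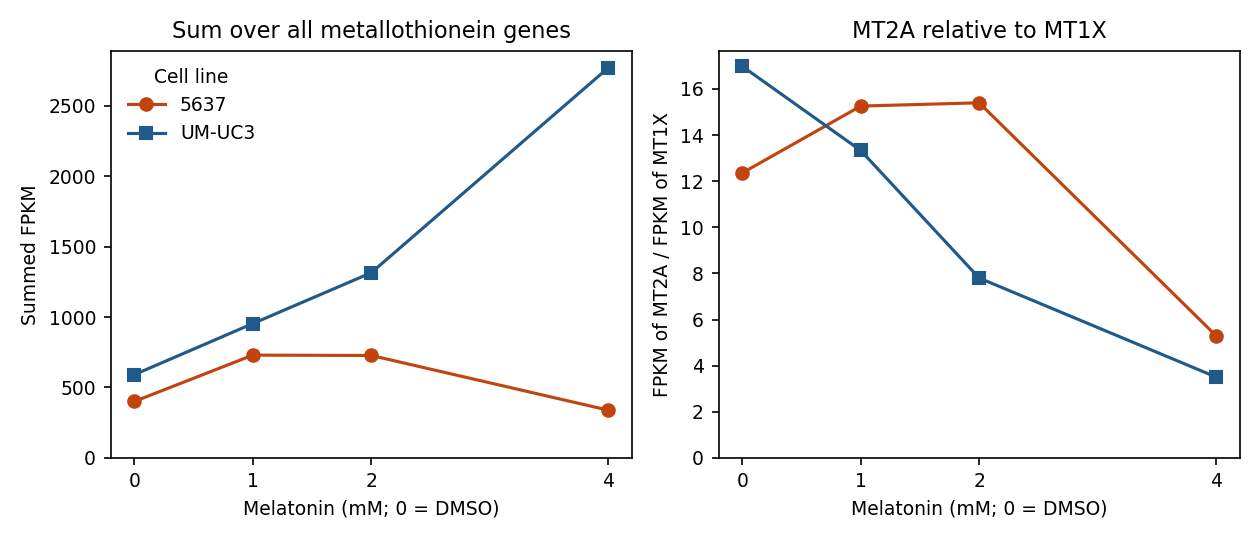
Summed FPKM of all metallothionein genes (left) and FPKM of MT2A divided by that of MT1X (right) against melatonin dose in mM, 1 library per point, circles for 5637 and squares for UM-UC3. The sum reaches 2771 in UM-UC3 at 4 mM and 339 in 5637 at that dose, and both ratios are lowest at 4 mM, at 5.30 in 5637 and 3.51 in UM-UC3.

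The 6 metallothionein members lie side by side with further family genes and pseudogenes in a stretch of 119 kb (chr16:56565073-56684196, GRCh38) that held 15 metallothionein rows. Of these, 4 were above 0 in any library and 3 averaged 1 FPKM or more. The active genes were not neighbours. MT1M, MT1A, MT1B and 4 other rows listed at 0 lay between MT2A and MT1F, beside MT1E and its traces, and MT1G and MT1H at 0 lay between MT1F and MT1X. MT3 and MT4, the family members known from brain and from stratified epithelium, were listed at 0 throughout.

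The nearest tested genes on either side, BBS2 and NUP93, were chosen by position. BBS2, a subunit of the ciliary BBSome, measured 3.66, 5.84, 6.21 and 6.31 FPKM in 5637 cells and 21.9, 24.5, 25.8 and 22.8 FPKM in UM-UC3 cells (slopes 0.55 and 0.03, limma adjusted p = 0.0838 and 0.970). NUP93, a nuclear pore protein, measured 12.7, 9.82, 6.91 and 6.62 FPKM in 5637 cells and 9.30, 9.93, 8.50 and 13.8 FPKM in UM-UC3 cells. It fell in 5637 cells by 0.85 (adjusted p = 0.0222), and its UM-UC3 slope was 0.49 (adjusted p = 0.174). The call of NUP93 was lost without the DMSO library of 5637 cells (slope then -0.59, adjusted p = 0.206) or its 4 mM library (slope then -1.59, adjusted p = 0.0737).

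**Figure D4:**
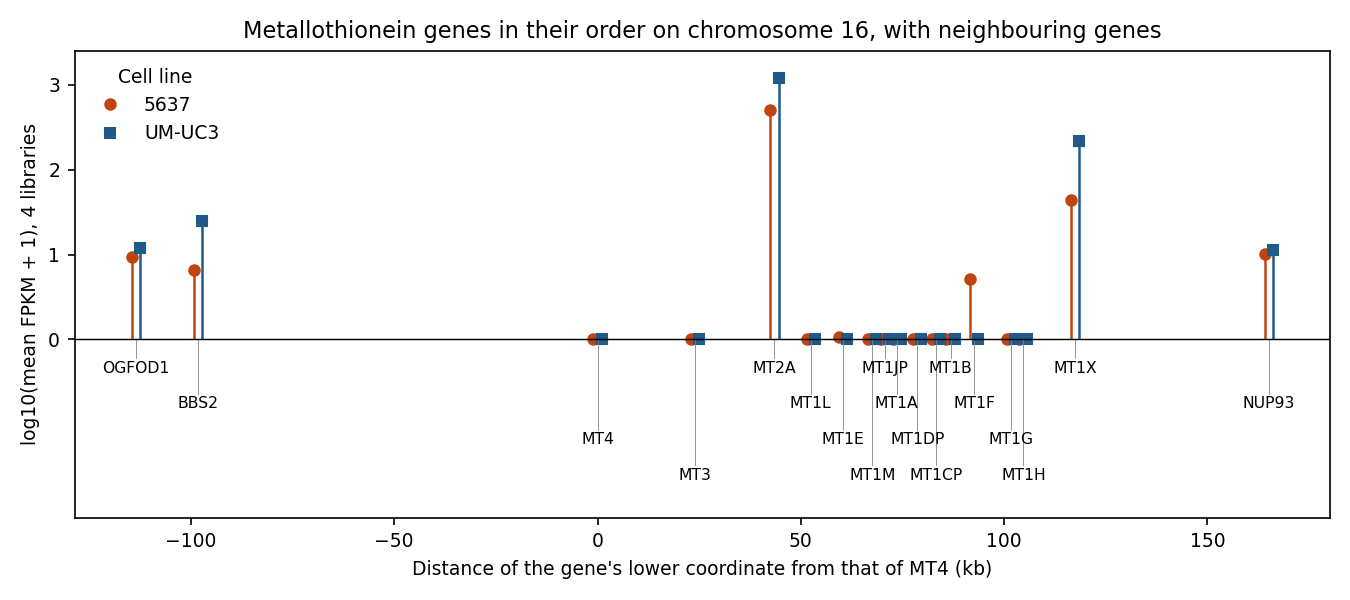
Mean expression over the 4 libraries of each line (y axis, log10 of mean FPKM plus 1; circles 5637, squares UM-UC3) of the metallothionein genes and 3 neighbouring genes at their distance in kb from MT4 (x axis). MT2A and MT1X stand above the neighbouring genes, MT1F is above 0 in 5637 alone, and the genes between them are at or near 0.

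Metallothionein genes resemble each other, and reads could be split between copies. The longest exact run that MT2A shared with another family transcript was 70 bases (with MT1G), and for MT1X it was 96 bases (with MT1G), in GENCODE transcripts. MT2A and MT1X shared a run of 66 bases. No stretch of 150 bases, the read length, was common to any pair, although the rule for reads matching several places was not found in the labels or the methods. Reads were also trimmed, and any left shorter than a shared run could match several genes. The processed pseudogene MT1XP1, which shares 87 bases with MT1X, was above 0 in 3 libraries, with a highest value of 1.47 FPKM in UM-UC3 cells at 4 mM. MT1P1 reached 0.671 FPKM in 5637 cells at 1 mM and MT2P1 0.0297 FPKM. The other 11 of the 14 metallothionein rows outside the members were at 0 in all 8 libraries. Values of these pseudogenes are uncertain for the same reason.

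The members were set against each other by Pearson's r of log2(FPKM + 1) over the 8 libraries after each line was centred on its own mean, as a description of libraries that share the same dose steps. MT1X and SLC30A1 had r = 0.89, SLC30A1 and MTF1 r = 0.88, and MT1X and MTF1 r = 0.88. MT2A and MT1X had r = 0.77, and MT2A and MTF1 r = 0.38. MT1F ran the other way from MTF1 (r = -0.52), a value carried by the 5637 libraries alone, since MT1F was at 0 in UM-UC3 cells. In 5637 cells MT2A was the one tested member whose 1 and 2 mM libraries were both well above its DMSO and 4 mM libraries.

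Among 9491 genes that averaged 4 FPKM or more, the pattern most like that of MT2A belonged to PDE7A (r = 0.98), a cyclic AMP phosphodiesterase gene, followed by GNPAT, LRRCC1, CCP110 and RNFT1 (r = 0.98, 0.96, 0.96 and 0.96). PDE7A measured 23.1, 27.8, 26.5 and 22.6 FPKM in 5637 cells and 4.00, 4.49, 5.08 and 6.16 FPKM in UM-UC3 cells, a hump in 5637 and a climb in UM-UC3 on a smaller scale. The pattern most like that of SLC30A1 belonged to PPAT (r = 0.98), which encodes the first enzyme of purine synthesis, with CCNG1, GAK and ZNF35 also among the most alike (r = 0.98, 0.97 and 0.97). PPAT measured 13.8, 14.7, 13.3 and 17.3 FPKM in 5637 cells and 8.47, 11.2, 12.2 and 15.9 FPKM in UM-UC3 cells.

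Of the remaining zinc transporter genes, SLC30A4 rose in 5637 cells and the importers SLC39A1 and SLC39A10 fell in both lines. Zinc exporters of the SLC30 (ZnT) family move zinc out of the cytosol, and importers of the SLC39 (ZIP) family move it in. Of the 10 exporter genes 6 were tested, SLC30A1 included. In 5637 cells 3 rose and 0 fell (median 0.52), and in UM-UC3 cells 1 rose and 0 fell (median -0.04), that 1 being SLC30A1, where 23.0% of all tested genes rose in 5637 cells and 12.5% in UM-UC3 cells. SLC30A4, a transporter of vesicles, measured 1.69, 3.11, 5.70 and 12.7 FPKM in 5637 cells and at most 0.00855 FPKM in UM-UC3 cells. It rose by 2.36 in 5637 cells (limma adjusted p = 7.78e-05), and the difference from UM-UC3 cells was also 2.36 (adjusted p = 0.00153, or 0.081 without the UM-UC3 library at 4 mM). SLC30A4 entered the tests only through its 5637 libraries and could not be called in UM-UC3 cells. This difference is therefore the trend of 5637 cells alone. The UM-UC3 libraries, at or near 0, had almost no scatter and so narrowed the shared spread behind both p-values.

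SLC30A5 and SLC30A7, which load zinc into the secretory pathway, rose in 5637 cells by 0.66 and 0.71 (limma adjusted p = 0.0308 and 0.0300). SLC30A5 measured 12.1, 14.3, 15.7 and 19.8 FPKM in 5637 cells and 13.0, 16.1, 16.5 and 12.8 FPKM in UM-UC3 cells. SLC30A7 measured 6.95, 7.11, 7.84 and 11.8 FPKM in 5637 cells and 6.68, 6.27, 9.09 and 7.996 FPKM in UM-UC3 cells. Neither call held when the DMSO library of 5637 cells was left out (slopes 0.60 and 0.90, adjusted p = 0.151 and 0.0509), nor its 1 mM library (slopes 0.67 and 0.68, adjusted p = 0.0566 and 0.0671), nor its 4 mM library (slopes 0.71 and 0.31, adjusted p = 0.357 and 0.729).

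Of the 14 importer genes 11 were tested. In 5637 cells 3 rose and 5 fell (median 0.12), and in UM-UC3 cells 0 rose and 2 fell (median 0.07). Over all tested genes 20.4% fell in 5637 cells and 16.7% in UM-UC3 cells, so the UM-UC3 share of falling importers was near that of all genes. SLC39A1, a zinc importer of the plasma membrane, measured 85.9, 63.1, 60.7 and 21.3 FPKM in 5637 cells and 36.1, 30.2, 23.6 and 14.3 FPKM in UM-UC3 cells. SLC39A10 measured 15.7, 12.2, 6.53 and 4.08 FPKM in 5637 cells and 12.3, 12.0, 11.5 and 4.53 FPKM in UM-UC3 cells. Both stepped down at every dose in both lines.

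With a single slope SLC39A1 fell by 1.61 (limma adjusted p = 0.00215) and SLC39A10 fell by 1.54 (adjusted p = 0.00326), and both calls held without any 1 library. Within lines, omitting the 4 mM library took the call from SLC39A1 in 5637 cells (slope then -0.99, adjusted p = 0.134) and in UM-UC3 cells (slope then -1.18, adjusted p = 0.303). SLC39A10 lost it likewise (-2.30, adjusted p = 0.0515 in 5637 cells, and -0.18, adjusted p = 0.922 in UM-UC3 cells). SLC39A9 rose in 5637 cells by 0.90 (adjusted p = 0.00378, or 0.0768 without the 4 mM library), and so did SLC39A14, the importer of zinc, manganese and iron, by 0.90 (adjusted p = 0.0184, or 0.606 without the 4 mM library).

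**Figure D5:**
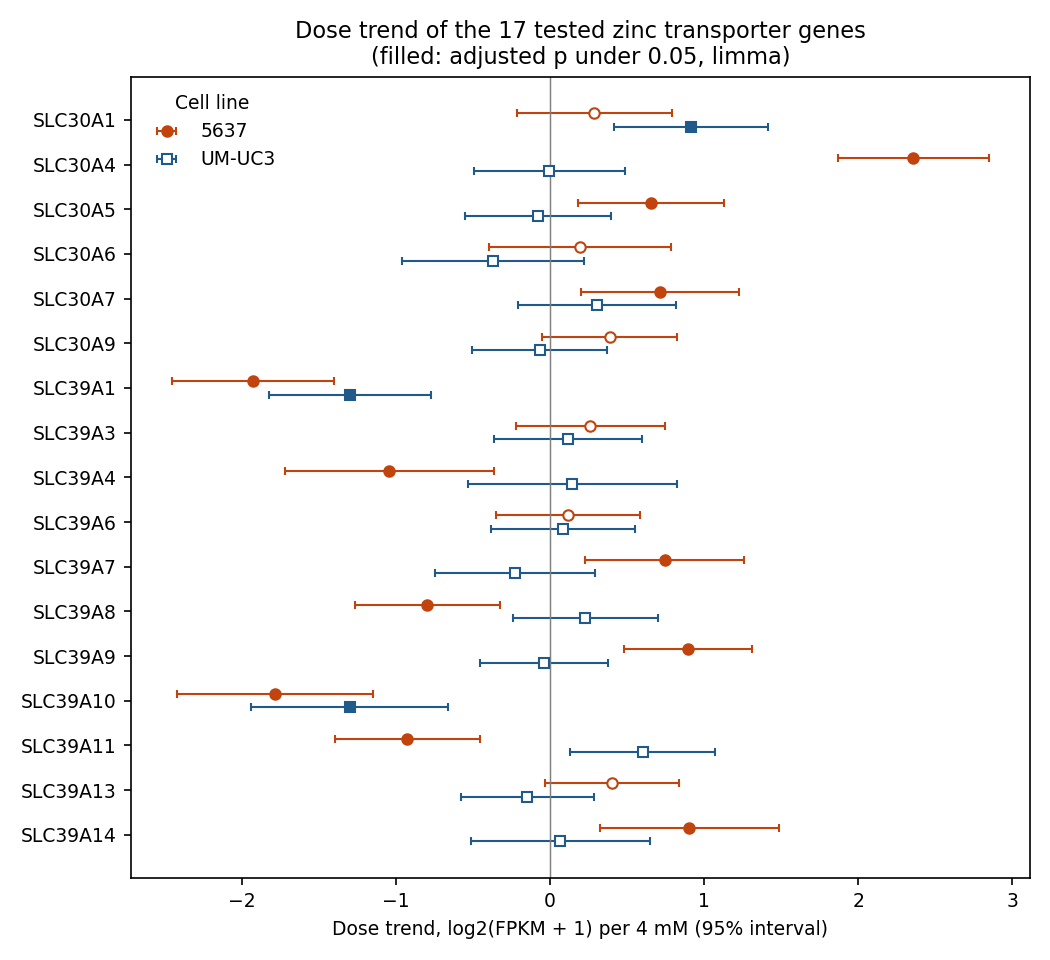
Dose trend (x axis, log2(FPKM + 1) per 4 mM, 95% intervals from limma) of the 6 tested SLC30 exporter and 11 tested SLC39 importer genes in 5637 (circles, upper) and UM-UC3 (squares, lower), filled where the adjusted p was under 0.05. SLC30A1 is the one exporter with a filled UM-UC3 point, SLC30A4 is furthest right at 2.36 in 5637, and SLC39A1 and SLC39A10 are left of 0 with filled points in both lines.

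Genes of other pathways to which metallothioneins are tied were counted in the same fits. Of 14 tested heat and metal stress chaperones, 8 rose and 0 fell in UM-UC3 cells (median 1.08), and 2 rose and 5 fell in 5637 cells (median -0.09). The shares over all tested genes were 12.5% rising and 16.7% falling in UM-UC3 cells, and 23.0% rising and 20.4% falling in 5637 cells. By dose HSPA1B and DNAJB1 ran differently from MT1X in UM-UC3 cells, while DNAJB4 stepped up at every dose in both lines. Likeness to MT1X was not tested. DNAJB4 measured 10.4, 14.0, 18.5 and 51.7 FPKM in 5637 cells and 11.9, 13.1, 16.1 and 20.5 FPKM in UM-UC3 cells. HSPA1B, an inducible HSP70, measured 34.4, 41.5, 45.3 and 66.2 FPKM in 5637 cells and 3.07, 3.45, 5.60 and 179 FPKM in UM-UC3 cells, and its reads cannot be told apart with certainty from those of its near-identical copy HSPA1A. DNAJB1, a co-chaperone, measured 58.5, 61.6, 73.9 and 281 FPKM in 5637 cells and 26.0, 25.3, 31.8 and 428 FPKM in UM-UC3 cells. In UM-UC3 cells HSPA1B rose by 5.66 (limma adjusted p = 0.00763) and DNAJB1 by 4.15 (adjusted p = 0.0131). Without the 4 mM library of UM-UC3 cells their slopes were 1.40 (adjusted p = 0.139) and 0.55 (adjusted p = 0.794), whereas MT1X was at 2.03 times its DMSO level at 1 mM and 4.55 times at 2 mM.

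Among 18 tested targets of NRF2, the regulator of the oxidative stress response, 5 rose and 2 fell with a single slope for both lines (median 0.44), where 12.1% of all tested genes rose and 12.8% fell. Taken by line, 5637 cells had 7 rising and 5 falling targets, and UM-UC3 cells had 4 rising and 0 falling. SRXN1, which repairs oxidised peroxiredoxin, measured 27.9, 32.5, 71.6 and 168 FPKM in 5637 cells and 37.3, 50.0, 96.6 and 130 FPKM in UM-UC3 cells and rose by 2.26 (limma adjusted p = 0.00183). HMOX1, haem oxygenase 1, measured 1.02, 0.817, 3.04 and 10.5 FPKM in 5637 cells and 31.2, 48.1, 65.8 and 104 FPKM in UM-UC3 cells and rose by 2.21 (adjusted p = 0.00244). GCLC, the catalytic subunit of the rate-limiting enzyme of glutathione synthesis, rose by 1.15 (adjusted p = 0.00289). It was also 1 of the 3 genes that rose among 18 tested genes of glutathione synthesis and use, where 0 fell with a single slope (median 0.04). The share called in either direction was smaller than the 24.9% of all tested genes (12.1% rising and 12.8% falling). Within the 5637 series 6 of these 18 rose and 5 fell, and within the UM-UC3 series 3 rose while 2 fell. For these line counts and those of the NRF2 targets, 23.0% of all tested genes rose and 20.4% fell in 5637 cells. In UM-UC3 cells 12.5% of all tested genes rose and 16.7% fell.

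Of 12 tested glucocorticoid receptor targets, 3 rose and 0 fell with a single slope (median 0.73). The share called in either direction was close to the 24.9% of all tested genes (12.1% rising and 12.8% falling). In 5637 cells alone 8 rose while 2 fell (median 1.53), where 23.0% of all tested genes rose and 20.4% fell. In UM-UC3 cells alone 3 rose while 2 fell (median -0.15), where 12.5% of all tested genes rose and 16.7% fell. The 3 genes of the single slope were DUSP1, a MAP kinase phosphatase, PER1, a circadian clock gene, and FKBP5, a co-chaperone of the receptor. DUSP1 rose by 2.64 (limma adjusted p = 0.00207), PER1 by 2.20 (adjusted p = 0.00501) and FKBP5 by 0.99 (adjusted p = 0.00537). DUSP1 measured 3.28, 2.48, 4.42 and 14.8 FPKM in 5637 cells and 27.6, 33.1, 66.7 and 237 FPKM in UM-UC3 cells. Of 18 tested genes of copper handling, 3 rose and 3 fell with a single slope (median -0.04), near the 12.1% rising and 12.8% falling of all tested genes. CCS, the copper chaperone of superoxide dismutase, rose by 1.14 (adjusted p = 0.00375), and STEAP3, a metalloreductase, fell by 1.25 (adjusted p = 0.00699). Over all tested genes the median single slope was -0.01, and the calls named here from that slope held without any 1 library.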

How the data were processed

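RNA was sequenced from 8 libraries, 1 for each of 4 doses in each line, with 150-base reads. The authors' processing, per the labels and methods, used CASAVA 1.8, Trimmomatic, FastQC, HISAT2, StringTie and edgeR on GRCh38. For annotation release and counting settings, nothing was given in the sources used here. RNA was extracted with an RNeasy kit per the labels and with another kit per the methods. The deposited values carry no unit name, and they were taken as FPKM from the authors' methods and the values. As they are not counts, limma replaced the count test that had been planned. A second sheet of 22465 rows repeated values of the first, and a sheet of correlations between samples was not used.

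In R 4.3.3, limma 3.58.1 (trend and robust moderation, Benjamini-Hochberg adjustment) was fitted to log2(FPKM + 1) of genes averaging 1 FPKM or more, with dose as a number and line as a factor. The residual degrees of freedom were 5 with a common slope and 4 with a slope per line. The script was tested on simulated data. Sequence searches and figures used Python 3.11.15, pandas 2.3.3 and matplotlib 3.10.9. Relative depth was read from the most common product of FPKM and length among processed pseudogenes. Alternatives were a rescaling by trimmed means, no filter or a mean of at least 5, a pseudocount of 0.1, log dose, plain moderation, the 4 mM libraries left out, group contrasts, no line term, and each library left out. The members and lists were chosen with earlier results of these data known. Named genes were all members, and from each other list at most 4 tested genes with the smallest p over both lines, while further zinc transporters, HSPA1B and neighbours of the cluster were picked with their values already seen. The 5 genes most like MT2A and SLC30A1 were taken by Pearson's r, of which 1 is not reported here.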

Additional observations from a re-analysis of the deposited data

Results flagged for a closer look

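For 3 members the dose trends of the lines differed by the test of the difference itself (limma, 5637 minus UM-UC3, log2 per 4 mM, adjusted over 12649 genes). The difference was -2.47 for MT2A (adjusted p = 0.0341), -3.48 for MT1X (adjusted p = 0.000402) and -1.46 for MT1F (adjusted p = 0.0255). For MT1F, UM-UC3 cells were listed at 0 and added no scatter. Line and culture medium cannot be told apart here.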

How the results depend on the processing

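With 1 library per condition, every test rests on the scatter around a dose line, and most member calls depended on the 4 mM libraries. The count of members called (limma) for the common slope was 2. It was 0 without the filter on low values (3 at an unadjusted p under 0.05), 1 without both 4 mM libraries, 0 for any dose against DMSO (0 unadjusted), 0 for 4 mM against DMSO (1 unadjusted) and 0 without a line term (2 unadjusted), and 1 to 3 with single libraries left out. In 5637 cells it was 3, and 1 without the filter, 1 with log dose, 0 without both 4 mM libraries (2 unadjusted) and 0 to 3 with single libraries left out. In UM-UC3 cells it was 4, and 2 without the filter, 2 with log dose, 1 without both 4 mM libraries and 1 to 4 with single libraries left out. For the difference of the trends it was 3, and 1 without the filter, 1 with log dose, 0 without both 4 mM libraries (2 unadjusted) and 1 to 3 with single libraries left out. For the level between lines it was 4, and 2 without the filter. With the lines paired by dose, an alternative chosen after seeing the data, it was 3.

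Direction turned for MT2A over both lines (-0.075 without UM-UC3 4 mM; range over single libraries left out -0.075 to 1.87), MT2A in 5637 cells (1.78 without the 4 mM libraries; range -1.80 to 1.78) and SLC30A1 in 5637 cells (-0.20 without them; range -0.20 to 0.35). Of the member values under alternatives, 303 kept direction and side of the threshold, 64 lost the call, 4 gained it and 5 turned. For the other named genes, 334 kept both and 87 lost the call. The causes were not tested. No paired analysis by replicate number was possible because the groups share only replicate number 1. Values of genes below about 0.1 FPKM are limited by depth.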
